A study of Mus musculus with 4 samples.

Results

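The genes described here are 48 chaperones and chaperone regulators of the heat-shock system, taken by gene symbol from the 23990 symbols of the deposited tables. They comprise the HSP70, HSP110, HSP40, HSP90 and small heat-shock proteins, their cochaperones, the subunits of the TRiC chaperonin, the mitochondrial chaperonin and the heat-shock factors Hsf1 and Hsf2. Although most act in the cytosol, 5 of them (Hspa9, Hspd1, Hspe1, Trap1 and Dnaja3) encode mitochondrial proteins, and Hspb11 encodes a subunit of the intraflagellar transport machinery despite its name. From textbook knowledge of their response to heat, 12 were classed as stress-induced, 10 as constitutive but raised further by heat, and 26 as constitutive. The classes were drawn with earlier results of these data known.

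RNA was measured in 4 libraries of effector CD4 cells (CD44+CD4) that had been sorted from wild type C57BL/6 mice (C57BL/6J in the study's methods) immunized with a MOG peptide to induce experimental autoimmune encephalomyelitis (EAE), a mouse model of multiple sclerosis. At disease onset, cells came from the spinal cord in the 2 CNS libraries and from pooled draining lymph nodes in the 2 dLN libraries. The study's methods state that sorted cells of both tissues were stimulated with PMA and ionomycin, whereas the sample labels call them freshly sorted and name no stimulation. The age of the mice, the number of mice behind a library and whether replicates are separate pools are not given in the sources used here, so p-values measure only the spread between these samples.

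The spacing of low values gave an estimated depth of 18.56 to 22.01 M fragments per library. Values are FPKM, that is fragments per kilobase relative to the total of a library, summed over the transcripts of a gene, and may be compared between genes because they are per length. Log2 ratios are of FPKM + 1, CNS over dLN, a scale that understates the change of low genes. Of the 48 genes, 46 had a mean of at least 1 FPKM in at least one tissue and were tested with limma together with all other such genes, 10634 in all. Called means a Benjamini-Hochberg adjusted p under 0.05 in limma.

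The identity of the cells was checked against defining markers. Cd4 reached 502 and 531 FPKM in CNS against 82.0 and 66.7 FPKM in dLN, and of the 8 listed genes of CD4 T cells 5 were called higher in CNS, 2 lower (Cd44, the marker of the sort, with a log2 ratio of -0.56, and Cd5 with -0.29) and Cd2 was not called. B-cell markers summed to at most 1.76 FPKM in any library. CNS replicate 2 stood apart in markers of other cells. Its 11 myeloid markers summed to 176 FPKM against 22.5 FPKM in CNS replicate 1 and 3.93 to 4.38 FPKM in dLN, and its neutrophil markers to 202 FPKM against at most 0.767 FPKM in the other libraries. Neuron markers summed to 2.29 and 12.5 FPKM in CNS against 0.056 FPKM or less in dLN, while the 7 oligodendrocyte markers summed to 132 and 123 FPKM in CNS and 64.5 and 63.1 FPKM in dLN. Nearly all of that sum was Mbp and Cnp. Cnp was at 82.8 and 77.5 FPKM in CNS and at 8.80 and 5.12 FPKM in dLN (log2 ratio 3.39, called), whereas Mog, Mag, Mobp and Cldn11 were under 0.2 FPKM in each library. Results that rest on CNS replicate 2 are therefore given with and without it. The tissues also differed in sex-linked RNA, with Xist at 26.6 and 22.3 FPKM in the dLN libraries but 0.0026 FPKM or less in the CNS libraries. Y-linked Ddx3y was listed at 0 in dLN and at 12.7 and 11.2 FPKM in CNS. By these values the CNS and dLN cells came from different mice, of different sex, and whether from the same experiment is not given. Tissue, sex and the mice used cannot be told apart here. In bulk RNA, fewer cells of a type and less RNA per cell cannot be told apart either.

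HSP70 proteins hold unfolded stretches of other proteins in a cycle driven by ATP. J-domain proteins (HSP40) deliver the substrate and start ATP hydrolysis, and HSP110 and BAG proteins reset the cycle by exchanging ADP for ATP. HSP90 then matures kinases and receptors, among them Lck, the proximal kinase of the T-cell receptor, while the ring-shaped TRiC folds actin and tubulin. On proteotoxic stress the transcription factor HSF1 forms trimers, binds heat-shock elements and drives the inducible members, whereas the constitutive ones serve ordinary protein synthesis.

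The chaperones of CNS effector CD4 cells did not move in one direction. Of the 46 tested genes, 12 were called higher in CNS and 30 lower. Over all tested genes, 37.8% were called higher and 37.2% lower, and 74.9% in either direction. Their median log2 ratio was -1.02, against 0.05 over all genes tested. Among the 10 stress-induced genes tested (of 12), 6 were higher and 2 lower, with a median log2 ratio of 1.24 and a range of -0.94 to 8.81. Among the 10 constitutive genes that heat raises further, 2 were higher and 8 lower (median -1.30), and among the 26 constitutive genes 4 were higher and 20 lower (median -1.25). The median of the stress-induced genes rested in part on CNS replicate 2, being 0.77 without it, and on how the classes were drawn, being -0.28 with the heat-raised constitutive genes joined to them. Together the 48 genes took 1.71% and 1.91% of the summed FPKM of the CNS libraries and 1.77% and 1.83% of the dLN libraries, so their summed share lay close together in both tissues while its makeup did not. CNS libraries lay above both dLN libraries in 14 of the 46 tested genes and below both in 31, with overlap in 1. Over all tested genes these shares were 45.7% and 43.7%, and 89.4% did not overlap in one direction or the other.

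**Figure D1:**
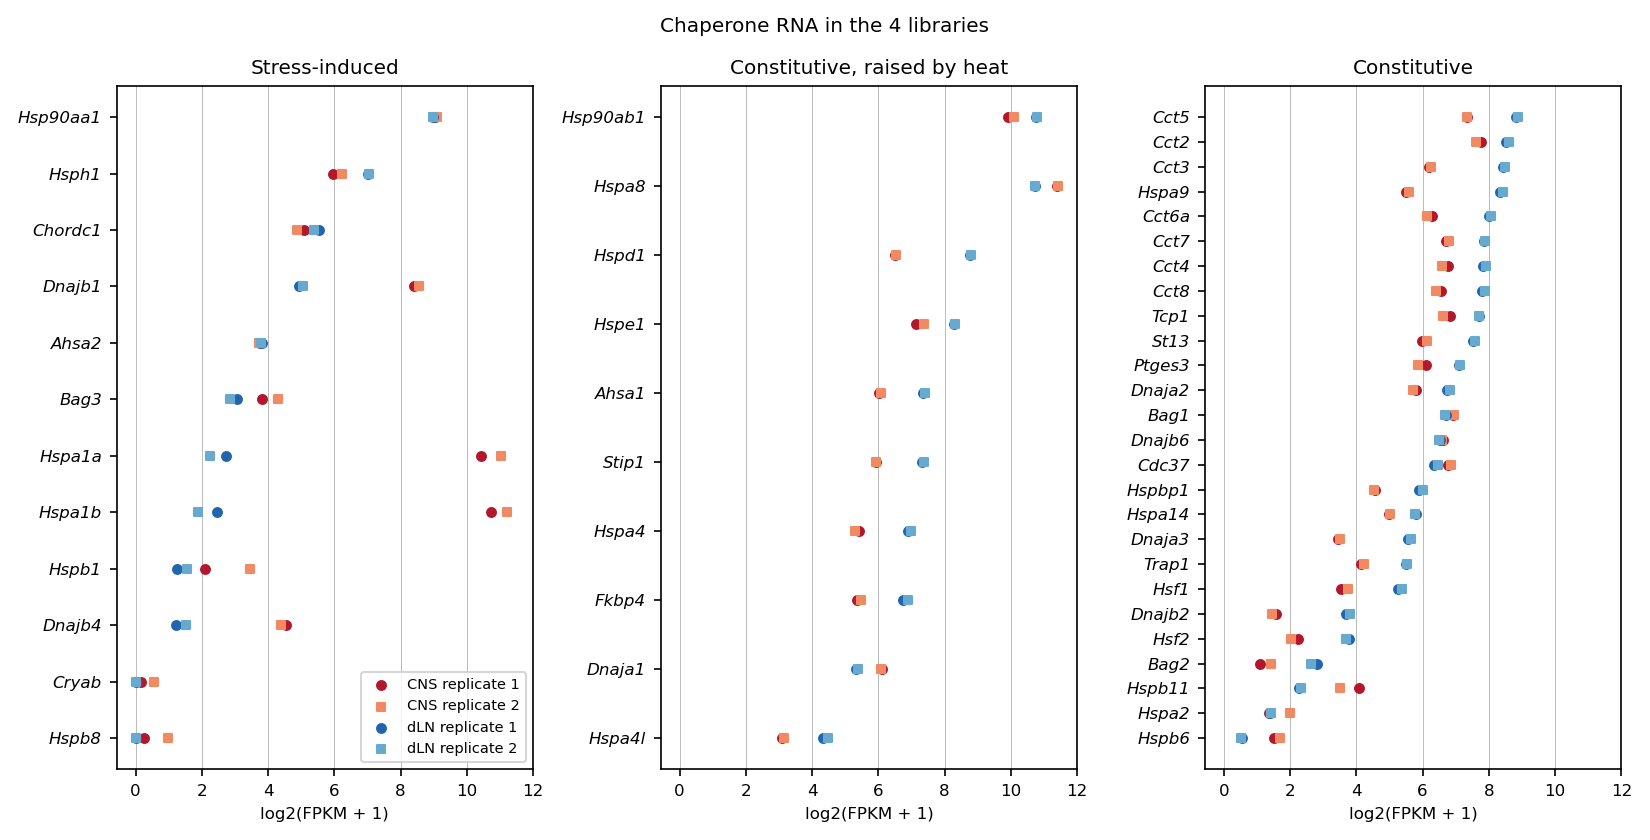
Level of each of the 48 genes as log2(FPKM + 1) on the horizontal axis, in panels by class and ordered by the dLN mean, with 1 point per library. Points of Hspa1a, Hspa1b, Dnajb1 and Dnajb4 in CNS (red and orange) lie far to the right of those in dLN (blue), whereas CNS points of most constitutive genes lie to the left.

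The inducible HSP70 genes Hspa1a and Hspa1b showed the 2 largest rises of the 10634 genes tested. These neighbouring genes on chromosome 17 (mm10, 34969359 to 34972156 and 34956429 to 34959238) encode nearly the same protein, the major HSP70 made after heat shock. Hspa1b was at 1708 and 2387 FPKM in CNS replicates 1 and 2 and at 4.47 and 2.70 FPKM in dLN replicates 1 and 2. Hspa1a was at 1367 and 2082 FPKM in CNS and at 5.69 and 3.76 FPKM in dLN. Both CNS libraries lay more than 100-fold above both dLN libraries, with replicate 2 the higher one in CNS and the lower one in dLN. The ratio of mean FPKM was 571 for Hspa1b and 365 for Hspa1a, and the log2 ratios were 8.81 (standard error 0.25) and 8.23 (standard error 0.26), with a limma adjusted p of 8.12e-05 for each. Low as they are, the dLN values stood on about 217 and 156 fragments for Hspa1b and 275 and 216 for Hspa1a. Without CNS replicate 2 the log2 ratios were 8.57 and 7.92. The myeloid sum of CNS replicate 1, which remains, was 22.5 FPKM against 3.93 to 4.38 FPKM in dLN. The part of other cells in these values was not tested.

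Split between the pair, these values are uncertain. Of the 31-base words of the Hspa1a transcript, 63.8% also occur in Hspa1b, and 67.6% of those of Hspa1b occur in Hspa1a, so the summed pair is the safer measure. Hspa1a also overlaps the annotated gene Gm20481 of the opposite strand over 2225 bases, and strand use in counting is not given in the sources used here. Summed, Hspa1a and Hspa1b were at 3075 and 4469 FPKM in CNS and 10.2 and 6.45 FPKM in dLN. They thus made up 0.534% and 0.740% of the summed FPKM of the CNS libraries and 0.00197% and 0.00126% of the dLN libraries. Hspa1l, the third HSP70 gene of this locus and not one of the 48, was looked at after the values of its neighbours had been seen. It was at 46.6 and 55.9 FPKM in CNS and at 0.871 and 0.666 FPKM in dLN (log2 ratio 4.88, limma adjusted p = 8.12e-05), and it shares 14.6% of its 31-base words with Hspa1a.

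Hspa8, the constitutive HSP70 of the cytosol, was abundant in both tissues. Its level was 2668 and 2760 FPKM in CNS and 1711 and 1699 FPKM in dLN, and the groups did not overlap (log2 ratio 0.67, standard error 0.06, limma adjusted p = 0.000551). Within each CNS library the inducible pair therefore exceeded Hspa8, at 1.15 and 1.62 times its level, whereas in dLN it reached 0.00594 and 0.00380 times. A ratio within a library does not depend on how the library was scaled. On average this one was 285 times higher in CNS, and 237 times with CNS replicate 2 left out. For this and the other ratios given here, an exact permutation test of 2 libraries against 2 gave p = 0.333 (two-sided), the smallest it can give. Much of Hspa8 is also found elsewhere in the transcriptome, 77.2% of its 31-base words being shared, mostly with the pseudogene Gm15459. In all, 15 of 47 genes with a matched transcript shared over 10% of these words with other genes, among them Hsp90aa1 (62.9%) and Hspb1 (61.7%). Their values may include reads of pseudogenes or of other genes, as with Hspa1a and Hspa1b.

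None of the other HSP70 genes was called higher in CNS. Hspa2, best known from the testis, was at 1.56 and 2.98 FPKM in CNS and 1.61 and 1.66 FPKM in dLN, which overlap (log2 ratio 0.28, limma adjusted p = 0.328). Hspa14, a ribosome-associated HSP70, had a log2 ratio of -0.79. Hspa9, the HSP70 of the mitochondrial matrix, fell most of all 48 genes. It was at 44.6 and 47.4 FPKM in CNS against 322 and 343 FPKM in dLN (log2 ratio -2.83, standard error 0.08, limma adjusted p = 8.12e-05).

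All 3 HSP110 genes, whose products act as exchange factors for HSP70, were lower in CNS although heat induces Hsph1 and raises Hspa4 and Hspa4l. Lower calls took in 37.2% of all genes tested. Hsph1 was at 61.1 and 73.8 FPKM in CNS and at 129.6 and 130.1 FPKM in dLN, with no overlap (log2 ratio -0.94, standard error 0.11, limma adjusted p = 0.00137). Hspa4 was at 41.5 and 38.3 FPKM in CNS and 119 and 127 FPKM in dLN (log2 ratio -1.59). Hspa4l was at 7.51 and 7.93 FPKM in CNS and 19.0 and 21.3 FPKM in dLN (log2 ratio -1.28). Set against them, the sum of Hspa1a, Hspa1b and Hspa8 was 52.1 and 60.2 times the sum of the HSP110 genes in CNS and 6.44 and 6.14 times in dLN.

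Of the 7 J-domain genes, 3 were higher, 3 lower and 1 not called, shares near those of all genes tested (37.8% and 37.2%). Dnajb1, the main stress-induced HSP40 and partner of inducible HSP70, was at 338 and 377 FPKM in CNS and at 29.4 and 32.5 FPKM in dLN. All CNS values thus exceeded all dLN values more than 10-fold (log2 ratio 3.49, standard error 0.10, limma adjusted p = 8.12e-05). Its relative Dnajb4, also heat-inducible, was at 22.5 and 20.1 FPKM in CNS and 1.32 and 1.86 FPKM in dLN (log2 ratio 3.11, standard error 0.14, limma adjusted p = 9.94e-05). Dnaja1, a constitutive HSP40 that heat raises, was at 68.1 and 66.9 FPKM in CNS and 38.7 and 40.7 FPKM in dLN (log2 ratio 0.75). The constitutive HSP40 genes went the other way. Dnajb2 was at 2.0 and 1.75 FPKM in CNS and 12 and 13.0 FPKM in dLN (log2 ratio -2.23), mitochondrial Dnaja3 had a log2 ratio of -2.13, and Dnaja2 one of -1.02. Dnajb6, which keeps aggregating proteins soluble, had a log2 ratio of 0.10 and was not called. As a consequence of the opposite directions, Dnajb1 was at 6.17 and 7.33 times the level of Dnaja2 in CNS and at 0.277 and 0.291 times in dLN.

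**Figure D2:**
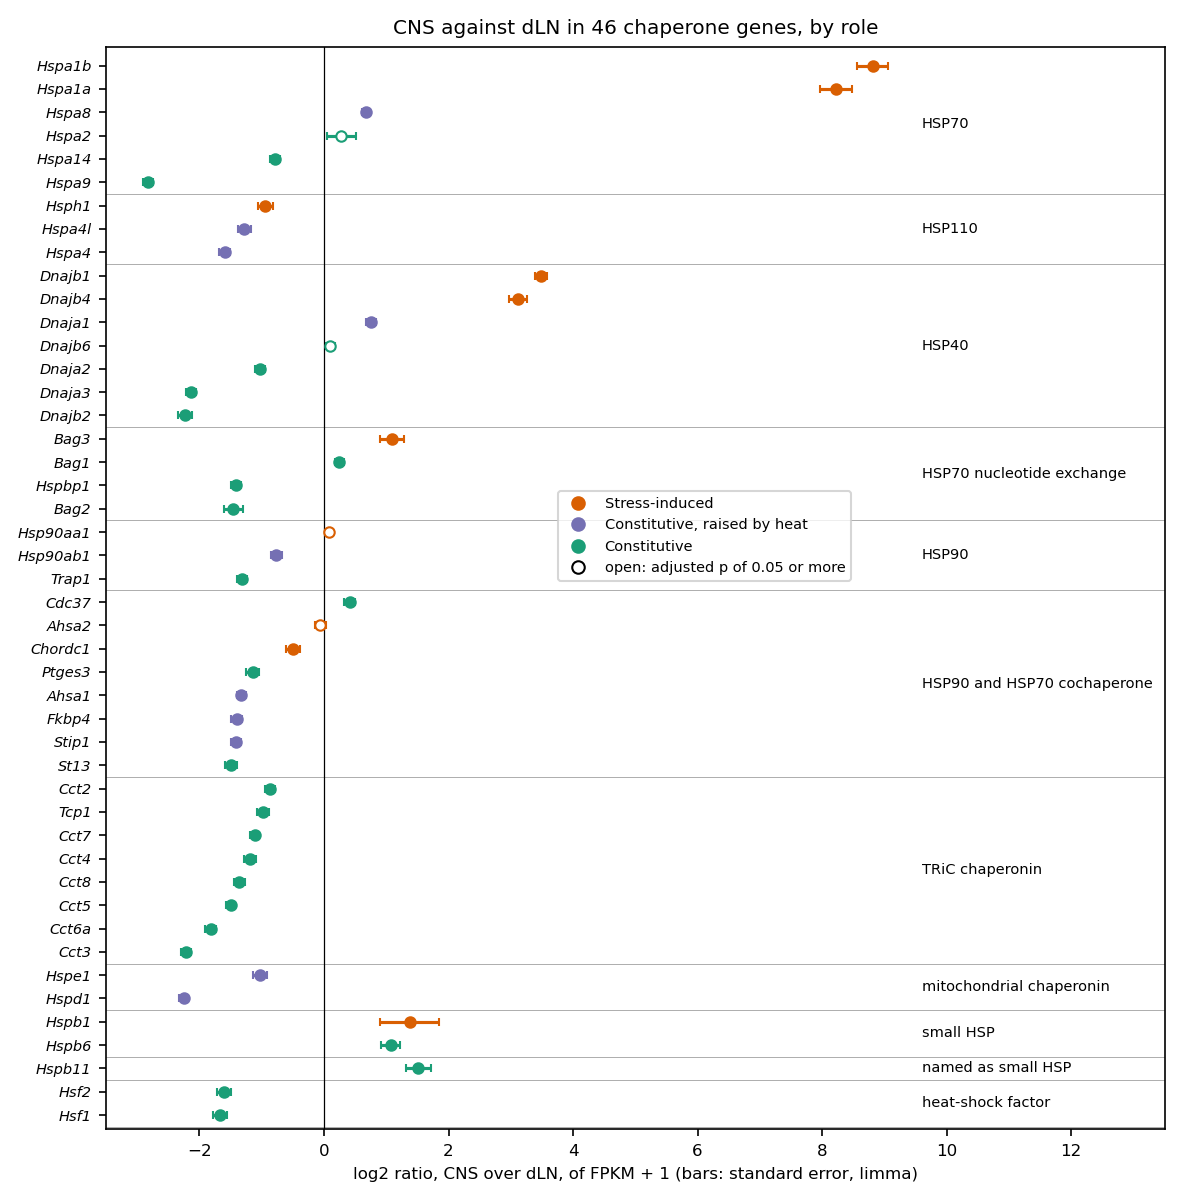
Log2 ratio of FPKM + 1, CNS over dLN, for the 46 tested genes grouped by role, with bars for the standard error from limma, colors for class and open points for genes not called. Stress-induced genes reach from -0.94 to 8.81, and all 8 TRiC genes, all 3 HSP110 genes and both heat-shock factors lie left of 0.

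Among the nucleotide exchange factors of HSP70, stress-induced Bag3, which links HSP70 to autophagy and small heat-shock proteins, was at 13.0 and 18.8 FPKM in CNS and at 7.35 and 6.22 FPKM in dLN. The tissues did not overlap (log2 ratio 1.10, standard error 0.19, limma adjusted p = 0.00513). Without CNS replicate 2 its log2 ratio was 0.85. Bag1 had a log2 ratio of 0.24 (limma adjusted p = 0.0314), a call that was lost when libraries were set to the same sum of FPKM (log2 ratio 0.05, limma adjusted p = 0.616). The call was also lost without CNS replicate 2 (limma adjusted p = 0.050025), dLN replicate 1 (limma adjusted p = 0.120) or dLN replicate 2 (limma adjusted p = 0.155). Bag2, an inhibitor of the ubiquitin ligase CHIP, and Hspbp1 were lower, with log2 ratios of -1.46 and -1.41.

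The 2 cytosolic HSP90 genes differed from each other. Stress-induced Hsp90aa1 was at 528 and 544 FPKM in CNS and 502 and 508 FPKM in dLN. Its log2 ratio of 0.08 (limma adjusted p = 0.301) turned to -0.11 with libraries set to the same sum and rose to 0.22 (limma adjusted p = 0.0341) with the same upper quartile, so no direction can be given. Constitutive Hsp90ab1 was at 968 and 1093 FPKM in CNS and 1720 and 1778 FPKM in dLN, with no overlap (log2 ratio -0.77, standard error 0.08, limma adjusted p = 0.00101). Hsp90aa1 consequently stood at 0.545 and 0.498 times Hsp90ab1 in CNS and 0.292 and 0.286 times in dLN. Trap1, the mitochondrial HSP90, had a log2 ratio of -1.31.

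Most cochaperones of HSP90 and HSP70 followed Hsp90ab1. Of the 8 tested, 6 were lower, 1 was higher and 1 was not called. Among all tested genes, 37.2% were called lower and 37.8% higher. Stip1, the adaptor that passes substrates from HSP70 to HSP90, was at 60.1 and 59.5 FPKM in CNS and 158 and 165 FPKM in dLN (log2 ratio -1.41). Fkbp4 (-1.40), the HSP90 activator Ahsa1 (-1.33), the HSP70-interacting St13 (-1.49) and Ptges3 (-1.14), the p23 that stabilizes HSP90 complexes, had similar log2 ratios. Stress-induced Chordc1, another HSP90 partner, was at 32.8 and 28.3 FPKM in CNS and 45.8 and 41.1 FPKM in dLN. It was called (log2 ratio -0.50, limma adjusted p = 0.0125), but no longer without dLN replicate 1 (limma adjusted p = 0.0731). Stress-induced Ahsa2 was at 12.6 and 12.3 FPKM in CNS and 13.2 and 12.8 FPKM in dLN. Those values nearly meet and were not called (log2 ratio -0.06, limma adjusted p = 0.55), and 2679 bases of the gene's span lie under Usp34 of the opposite strand. The exception was Cdc37, which recruits kinases to HSP90. It was at 109 and 115 FPKM in CNS and 80.3 and 87.0 FPKM in dLN (log2 ratio 0.41, limma adjusted p = 0.00884), a call lost with libraries set to the same sum (limma adjusted p = 0.0678) and without dLN replicate 1 (limma adjusted p = 0.0618).

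TRiC, the chaperonin for actin and tubulin, is assembled from Tcp1 and the Cct genes. All 8 of its measured genes were called lower in CNS, as were 37.2% of all genes tested. The log2 ratios of the TRiC genes ran from -0.87 for Cct2 to -2.22 for Cct3, with a median of -1.27. Summed, TRiC genes were at 945 and 892 FPKM in CNS and at 2307 and 2397 FPKM in dLN. Cct3 fell furthest, from 341 and 357 FPKM in dLN to 72.7 and 75.9 FPKM in CNS (log2 ratio -2.22, standard error 0.08, limma adjusted p = 8.33e-05).

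All 5 mitochondrial genes were called lower as well, with a median log2 ratio of -2.13. By comparison, 37.2% of all tested genes were called lower. Hspd1 and Hspe1 encode the HSP60 and HSP10 rings of one chaperonin and are read in opposite directions from a shared promoter on chromosome 1. Hspd1 was at 90.0 and 92.3 FPKM in CNS and at 435 and 440 FPKM in dLN (log2 ratio -2.25, standard error 0.07, limma adjusted p = 8.12e-05). Hspe1 was at 141 and 167 FPKM in CNS and at 307 and 319 FPKM in dLN (log2 ratio -1.03, standard error 0.11, limma adjusted p = 0.000803). Thus the partners fell by unequal amounts, and Hspd1 stood at 0.639 and 0.554 times Hspe1 in CNS and 1.41 and 1.38 times in dLN. Both have pseudogene copies, since 55.8% of the 31-base words of Hspd1 and 48.1% of those of Hspe1 occur in transcripts of other genes.

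Small heat-shock proteins, which hold unfolding proteins without ATP, were scarce in every library. Hspb1 (HSP25) was at 3.24 and 10.1 FPKM in CNS and at 1.36 and 1.95 FPKM in dLN, so that CNS replicate 2 was well above the others. It was called (log2 ratio 1.38, standard error 0.47, limma adjusted p = 0.0465), but its log2 ratio was 0.68 without CNS replicate 2, and the call was lost without dLN replicate 1 (limma adjusted p = 0.166) or dLN replicate 2 (limma adjusted p = 0.0909). Hspb6 was at 1.87 and 2.24 FPKM in CNS and at 0.474 and 0.437 FPKM in dLN (log2 ratio 1.07, limma adjusted p = 0.00202), and it was tested only because of its CNS level. Hspb8, the partner of Bag3, was at 0.201 and 0.968 FPKM in CNS, and Cryab, the lens and glial small heat-shock protein, at 0.132 and 0.485 FPKM. Both were listed at 0 in dLN, and neither was tested. Each of these small heat-shock genes was higher in CNS replicate 2 than in replicate 1. So were the myeloid sum (176 against 22.5 FPKM), the neutrophil sum (202 against 0.767 FPKM) and the neuron sum (12.5 against 2.29 FPKM). The astrocyte sum was higher too (3.42 against 0.893 FPKM), with 1.33 and 0.936 FPKM in dLN. The oligodendrocyte sum went the other way (123 against 132 FPKM). The part of other cells in the small heat-shock values was not tested. Hspb11, the intraflagellar transport gene, was at 15.9 and 10.5 FPKM in CNS and at 3.78 and 3.99 FPKM in dLN (log2 ratio 1.51, limma adjusted p = 0.00189).

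**Figure D3:**
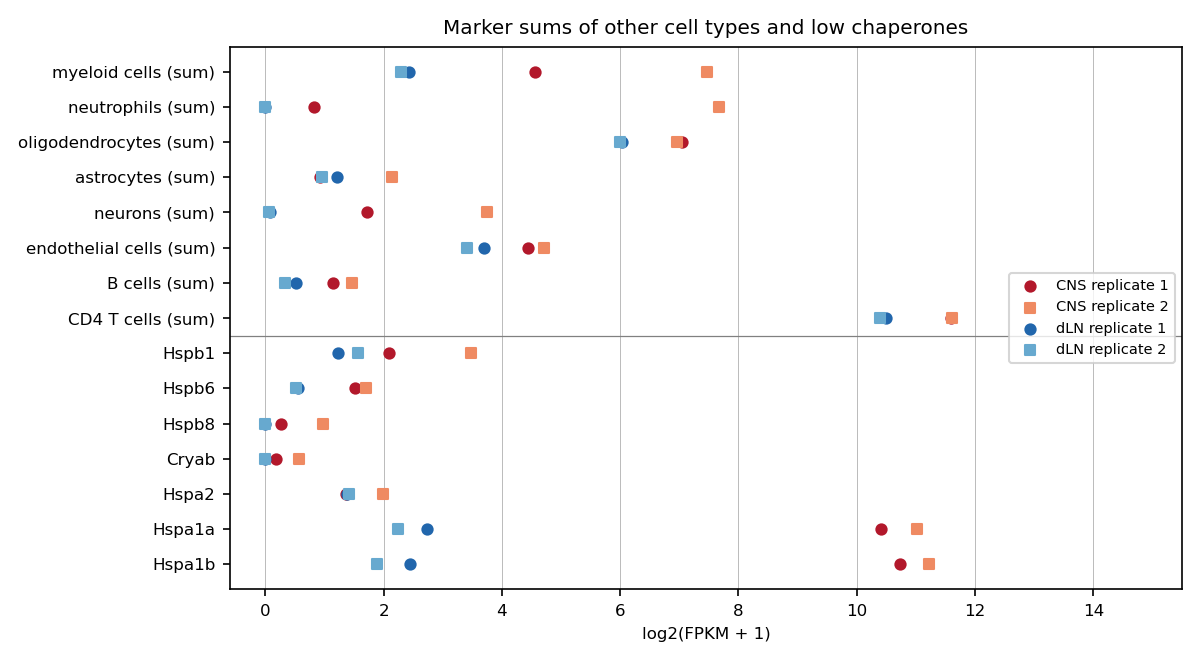
Summed FPKM of marker lists of other cell types (above the line) and FPKM of low and inducible chaperones (below it), as log2(FPKM + 1), with 1 point per library. CNS replicate 2 (orange squares) lies above CNS replicate 1 in the myeloid, neutrophil, astrocyte and neuron sums and in Hspb1, Hspb6, Hspb8 and Cryab. In the oligodendrocyte sum it lies slightly below.

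The transcription factors of the system were lower in CNS. Hsf1, the master regulator of the heat-shock response, was at 10.7 and 12.6 FPKM in CNS and at 37.6 and 40.9 FPKM in dLN (log2 ratio -1.68, standard error 0.11, limma adjusted p = 0.000241). Hsf2, which can pair with HSF1, was at 3.69 and 3.05 FPKM in CNS and at 12.7 and 11.9 FPKM in dLN (log2 ratio -1.61, standard error 0.12, limma adjusted p = 0.000280). In neither gene did the tissues overlap. HSF1 is controlled mainly at the protein level, by release from chaperones, trimerization and phosphorylation, which RNA does not show.

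Set against each other within a library, the summed stress-induced genes were at 2.52 and 3.55 times the summed constitutive genes in CNS and at 0.205 and 0.198 times in dLN, on average 15.1 times higher in CNS. Much of this came from 1 pair of genes. Without Hspa1a and Hspa1b the ratio was 0.625 and 0.694 in CNS and 0.202 and 0.196 in dLN, on average 3.31 times higher. In FPKM, stress-induced genes summed to 4086 and 5555 in CNS and 740 and 741 in dLN, and constitutive genes to 1619 and 1565 in CNS and 3607 and 3748 in dLN. The heat-raised constitutive genes summed to 4148 and 4394 in CNS and 4775 and 4875 in dLN.

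**Figure D4:**
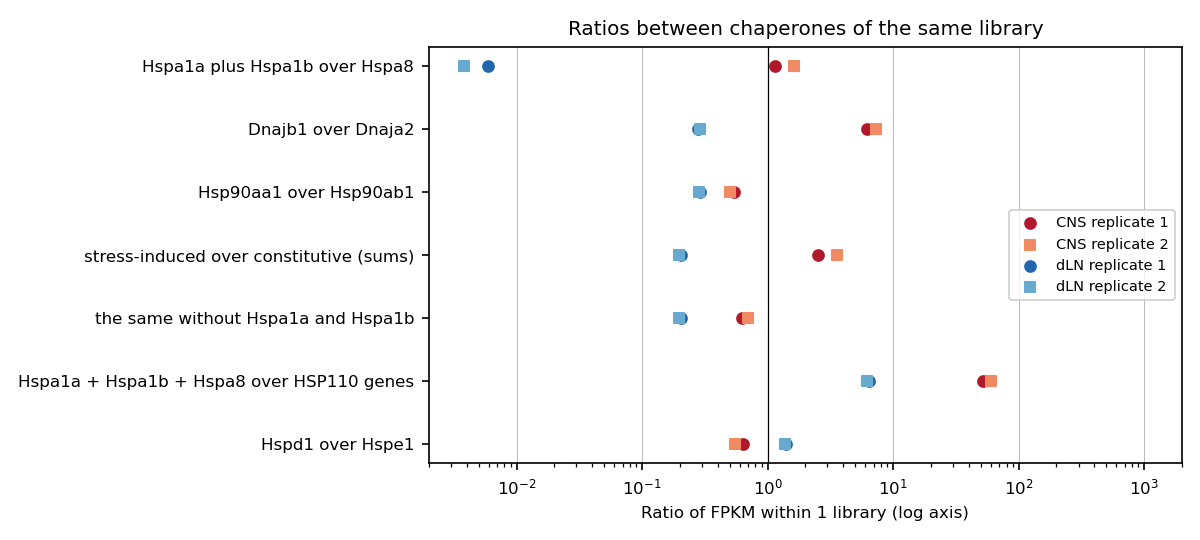
Ratios between chaperone levels within 1 library on a log axis, with 1 point per library and a line at 1. The pair Hspa1a and Hspa1b exceeds Hspa8 in both CNS libraries (1.15 and 1.62) and lies under 0.01 in both dLN libraries, and Hspd1 over Hspe1 is the only ratio shown that is lower in CNS.

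HSF1 binds inverted repeats of the unit nGAAn, so promoters of these genes were searched for 2 alternating units (GAANNTTC or TTCNNGAA, each its own reverse complement) and for 3. The 3-unit form is GAANNTTC extended by NNGAA, or its reverse complement, and contains the 2-unit forms. RefSeq promoters of build GRCm38.p6, from 250 bases before to 50 bases after the annotated start, were matched for 40 of the 48 genes. They were not matched for Cct4, Hspa9, Hspa8, St13, Hsp90aa1, Hsf1, Hsp90ab1 and Cryab. The 2-unit form occurred in 8 of 10 matched stress-induced genes, 4 of 8 heat-raised and 6 of 22 constitutive genes, against 17% of the 27025 genes with a promoter in the table. The 3-unit form occurred in 5 of the 40 genes, or 12.5%, against 0.662% of all genes. These 5 were Hspd1, Hspe1, Dnajb6, Hsph1 and Chordc1, of which 4 were lower in CNS and Dnajb6 was not called. By the same calls, 30 of the 46 tested chaperones and 37.2% of all tested genes were lower. None of the 3-unit matches lay in these windows of Hspa1a, Hspa1b, Dnajb1 or Dnajb4, the genes with the largest rises among the 48.

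The windows below run from base -150 to -1 before the annotated start, 5′ to 3′ on the strand of the gene, with matches to the 2-unit or 3-unit form in capitals. For a gene with several promoters, the one at the lowest coordinate is shown. The deposited Dnajb4 locus reaches to base 152210083, upstream of the start used, and which start its RNA came from was not tested. Hspa1a, Hspa1b, Dnajb1 and Dnajb4 are shown as the genes that rose most, Hspe1 as a gene that fell and Dnajb6 as one that was not called, both of the latter with 3 units. They lie at chr17:34972157-34972306 (minus strand), chr17:34959239-34959388 (minus strand), chr8:83608025-83608174 (plus strand), chr3:152193846-152193995 (minus strand), chr1:55087998-55088147 (plus strand) and chr5:29735748-29735897 (plus strand).
Hspa1a: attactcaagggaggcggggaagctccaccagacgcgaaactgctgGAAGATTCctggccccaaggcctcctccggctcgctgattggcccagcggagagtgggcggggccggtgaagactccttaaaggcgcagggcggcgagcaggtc
Hspa1b: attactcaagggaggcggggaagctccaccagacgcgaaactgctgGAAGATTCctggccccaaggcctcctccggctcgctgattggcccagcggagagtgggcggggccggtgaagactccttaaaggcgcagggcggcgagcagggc
Dnajb1: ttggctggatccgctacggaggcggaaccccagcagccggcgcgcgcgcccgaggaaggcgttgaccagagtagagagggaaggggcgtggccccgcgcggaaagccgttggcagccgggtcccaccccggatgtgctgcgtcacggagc
Dnajb4: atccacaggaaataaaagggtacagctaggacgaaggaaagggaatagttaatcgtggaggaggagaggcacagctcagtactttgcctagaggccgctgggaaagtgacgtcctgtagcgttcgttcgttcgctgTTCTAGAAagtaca
Hspe1: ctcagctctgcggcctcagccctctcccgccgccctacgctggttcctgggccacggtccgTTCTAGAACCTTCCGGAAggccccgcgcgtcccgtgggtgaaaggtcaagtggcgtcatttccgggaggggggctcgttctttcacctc
Dnajb6: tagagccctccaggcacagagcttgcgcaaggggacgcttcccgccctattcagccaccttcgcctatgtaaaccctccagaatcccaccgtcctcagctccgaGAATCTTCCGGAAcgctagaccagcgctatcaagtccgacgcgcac

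Over the 250 bases before their starts, Hspa1a and Hspa1b were identical at 98.8% of positions, and the windows shown differ at 1 base. Each holds 1 match of 2 units in the same place. In the Dnajb1 window no match was found. Dnajb1 had the next largest log2 ratio of FPKM + 1 after that pair. By the ratio of mean FPKM, however, Dnajb4 rose more (13.4 against 11.6), and its window shown holds a match. The element of Hspe1 is also the 3-unit match of Hspd1, which is read from the other strand of the same stretch. Chordc1 carries its match across the start itself (chr9:18292263-18292285, plus strand), from base -4 to 19, with overlapping units in GAACGTTCGGGAAAATTCCTGAA. Hsph1 carries TTCTGGAAAGTTC (chr5:149636288-149636300, minus strand) within the transcript, at bases 16 to 28 after the start. Positions are from 1 annotated start of each gene. From another start, the Hsph1 match lies at bases 37 to 49. A match describes letters and shows no binding, and its absence says only that these letters are not in the window.

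**Figure D5:**
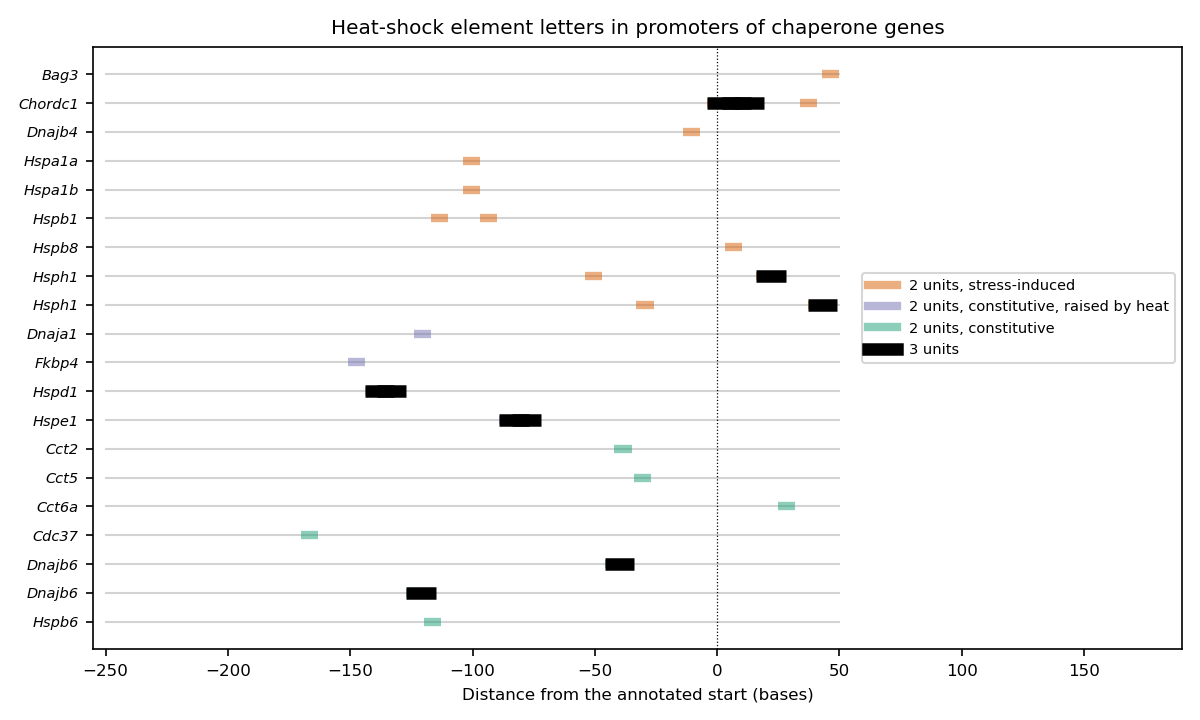
Position of heat-shock element letters in the matched promoters that hold any, in bases from the annotated start, with 1 line per promoter (genes with 2 promoters appear again). Colored marks are 2 units by class and black marks are 3 units, which lie in Chordc1, Hsph1, Hspd1, Hspe1 and Dnajb6.

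Further genes of protein folding were described from lists of their own. Of 7 tested genes of prefoldin, which hands actin and tubulin to TRiC, and of other chaperonin helpers, 2 were higher and 3 lower. Pfdn5 was higher (log2 ratio 1.12) and Pfdn2 lower (log2 ratio -1.48). Of 11 other HSP90 cochaperones, 3 were higher and 5 lower, from Ppid (log2 ratio -3.08), a cyclophilin partner of HSP90, to Sugt1 (log2 ratio 1.19). Of 10 other HSP70 and J-domain genes, 1 was higher and 5 lower, and of 8 other mitochondrial chaperones and proteases 2 were higher and 5 lower, with Lonp1 and Clpp, a pair of matrix proteases, at log2 ratios of -1.80 and -1.78. The median log2 ratios of these lists were 0.14, -0.26, -0.37 and -0.43. With 37.8% of all tested genes called higher and 37.2% lower, the counts of the prefoldin and HSP90 cochaperone lists lie near the background.

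Genes outside the chaperones that HSF1 can also induce were mostly higher, 6 of 8 called so and 2 lower, with a median log2 ratio of 0.70. Over all tested genes, 37.8% were called higher and 37.2% lower, which is the background for each list of this paragraph. Tnfaip3 had the largest log2 ratio of the 8, 1.54. Dedd2 had a log2 ratio of 0.98, and Hmox1, which HSF1 shares with other stress factors, one of -1.93. These genes were named after their values had been seen, and whether HSF1 acted on Tnfaip3 or any other gene of this list was not tested. Immediate-early genes that tissue dissociation is known to raise were higher in 9 of 12 cases, lower in 1 and not called in 2. They summed to 2765 and 3964 FPKM in CNS and to 706 and 786 FPKM in dLN. In CNS this sum, like the sum of Hspa1a and Hspa1b, was higher in replicate 2. In dLN it was also higher in replicate 2, where the sum of Hspa1a and Hspa1b was lower (6.45 against 10.2 FPKM). Jun had a log2 ratio of 4.49, Dusp1 of 3.71 and Fos of 3.29, whereas Atf3 had one of -2.13. PMA and ionomycin induce many of the same genes, and the part of cell isolation or stimulation in the chaperone levels was not tested.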

How the data were processed

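RNA of 4 libraries, 2 per tissue, was analysed. The deposited values are FPKM, which the authors computed from trimmed and mapped reads for 33819 RefSeq transcripts (mm10), in 1 table for each tissue. The aligner and the program behind FPKM are not given in the sources used here, nor is strand use, so genes that overlap on opposite strands (Ahsa2 and Usp34 by 2679 bases, Hspa1a and Gm20481 by 2225, Chordc1 and Gm19178 by 1819, Tcp1 and Acat3 by 1255, Cryab and Hspb2 by 1030, and others by less) are uncertain. In the CNS table both library names share 1 header cell, and their order was taken as that of the value columns. No other columns of samples were present.

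Rows were joined by transcript and summed by symbol. The 565 transcripts without a symbol were left out (0.142% to 0.446% of a library's FPKM). Log2(FPKM + 1) of the 10634 genes whose mean reached 1 FPKM in one tissue or both was fitted on tissue alone with limma 3.58.1 (R 4.3.3; lmFit, then eBayes with a trend). P-values were adjusted over all of them by Benjamini and Hochberg, with a threshold of 0.05. On simulated data limma recovered 152 of 200 changed genes with 8 false calls among 10634 genes. The simulated noise depended on mean level alone. In the data themselves 7968 genes were called, so the rate of false calls there is not known from the simulation. Low FPKM values fell within 0.05 of whole fragments in 87.0% to 90.5% of cases, where chance gives 10%, which gave the depth. Depth limits counting precision of low genes, and FPKM itself was not turned into counts for testing.

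Across genes, which are not independent replicates, Pearson's r between replicates was 0.976 for CNS and 0.986 for dLN. Of the 46 tested chaperones, 42 in CNS and 44 in dLN had replicates within 1.5-fold. Gene positions are from the deposited tables, promoters from RefSeq, and 31-base words from GENCODE M21 transcripts. Other steps ran in Python 3.11.15 (pandas 2.3.3, numpy 2.4.6, matplotlib 3.10.9, scipy 1.17.1).

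The 48 genes, their classes and the other lists were chosen with earlier results of these data known. Values in every library are given for the stress-induced genes, for a set of reference chaperones and for the 3 largest rises and falls in each class, and the others by log2 ratio or counts. Alternatives covered the pseudocount, 3 scalings, the highest transcript, 2 filters, a replicate block, eBayes without trend, the classes and leaving out each library. One gene of the other lists is not reported here.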

Additional observations from a re-analysis of the deposited data

How the results depend on the processing

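Of 596 comparisons of a tested chaperone with an alternative, 571 kept direction and call, 16 lost and 3 gained the call, and 6 changed direction, over 13 settings. The number of all genes called, 7968, ranged from 6518 with a minimum of 5 FPKM to 8477 with no filter, and from 6676 to 7429 with 1 library left out. Chaperones called higher ranged from 9 to 14 and those called lower from 29 to 30.

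The median log2 ratio of all genes moved from 0.05 to -0.13 with libraries set to the same sum of FPKM and to 0.16 with the same upper quartile. Under the same sum, 2 constitutive genes in place of 4 were called higher, the medians of heat-raised and constitutive genes were -1.49 and -1.45, and those of prefoldin, other HSP70 and mitochondrial protease genes were -0.049, -0.55 and -0.60. Hsp90aa1 turned to -0.11 and Dnajb6 to -0.10. Under the upper quartile these 5 medians were -1.17, -1.12, 0.28, -0.25 and -0.31, Ahsa2 turned to 0.067, and Hsp90aa1 (0.22) and Dnajb6 (0.24) were called. With only the highest transcript of each gene, other HSP70 and mitochondrial genes had medians of -0.58 and -0.50, and Hspa2 (-0.33) and Dnajb6 (-0.15) turned. A pseudocount of 0.1 FPKM gave the mitochondrial list -0.50, and a minimum of 5 FPKM gave it -0.35 and the constitutive genes -1.34. Joining the heat-raised genes gave -0.28 for the stress-induced and -1.30 for the constitutive class. The median of other HSP90 cochaperones was -0.45 with the same sum and -0.13 with the same upper quartile. The causes were not tested.

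With 1 library left out, stress-induced genes called lower ranged from 1 to 2 and constitutive genes called higher from 2 to 5, the lowest of each without dLN replicate 1. Hspa2 ranged from -0.039 to 0.60, the prefoldin median from 0.020 to 0.17, the mitochondrial median from -0.49 to -0.37 and that of other HSP90 cochaperones from -0.43 without CNS replicate 2 to -0.09 without CNS replicate 1. A test with 1 library in an arm assumes that it varies like the other arm.

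Whether same-numbered replicates share a batch is not given in the sources used here, and the correlation of their deviations (0.0933) cannot settle it. A replicate block called 7828 genes, with 11 chaperones higher and 30 lower. Bag1 (limma adjusted p = 0.0588) lost its call under the block.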

Other observations

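Dnajb6 was not called as a gene, but its transcripts were listed at different proportions in the 2 tissues. The transcript of 2708 bases was at 33.1 and 36.7 FPKM in CNS and at 18 and 19.7 FPKM in dLN, or 33.7% and 38.7% of the gene's FPKM in CNS and 19.8% and 22.1% in dLN. The transcript of 1645 bases was at 61.9 and 54.1 FPKM in CNS and at 64.8 and 63.8 FPKM in dLN. The long form did not overlap between tissues, and no test of transcripts was run. The split of reads between transcripts depends on the authors' program, and 43.8% of the 31-base words of Dnajb6 occur in other genes' transcripts.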
